A study of Mus musculus with 12 samples.

Results

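Transcripts of 7 secreted factors, mostly growth factors and cytokines, were followed in mouse adipose-derived mesenchymal stem cells. The factors have roles in blood vessel growth or in support of neighbouring cells. They were chosen by gene ID, and all 7 were present among the 56748 gene IDs of the count table: Hgf (ENSMUSG00000028864), Fgf2 (ENSMUSG00000037225), Fgf7 (ENSMUSG00000027208), Lif (ENSMUSG00000034394), Angpt1 (ENSMUSG00000022309), Angptl4 (ENSMUSG00000002289) and Vegfc (ENSMUSG00000031520). All 7 also passed the filter on low counts, which left 14338 genes. The cells had been isolated from mouse fat and were kept as 3D spheroids or as 2D cultures attached to a surface, here called attached cells. RNA was sequenced in 4 groups of 3 libraries: spheroids and attached cells after 24 h, and spheroids and attached cells at 0 h. The study set out to find genes that differ between these forms of culture. All groups carried the same medium, DMEM with serum and antibiotics, and none carried a drug or a genetic change that the labels name. Mouse strain, sex, age and passage, and the time that spheroids had been forming at 0 h, are not stated by the labels. Nor do they say that replicates came from separate cultures. The p-values therefore cover only how far these libraries spread, and that spread could be technical.

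These factors act outside the cell that makes them. Hgf encodes hepatocyte growth factor, the ligand of the receptor MET, which drives motility, survival and branching of epithelial and endothelial cells. Fgf2 and Fgf7 encode fibroblast growth factors: FGF2 acts on many cell types, endothelial cells among them, while FGF7, made by stromal cells, acts on epithelium. Lif encodes leukemia inhibitory factor, a cytokine of the interleukin-6 family that signals through LIFR and gp130 to STAT3. Angpt1 and Vegfc encode ligands of endothelial receptors, TIE2 for angiopoietin-1, which stabilises vessels, and VEGFR3 for VEGF-C, which drives lymphatic growth. Angptl4 encodes a secreted inhibitor of lipoprotein lipase that is induced by fasting, PPAR ligands and low oxygen in fat and other tissues. Mesenchymal stem cells from fat are known for secreting such factors.

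Library totals lay between 10182590 and 17109609 expected counts, and between 17046 and 20008 genes had a count. Levels within a gene are given as CPM, the count scaled to a fixed library size with TMM factors. Levels between genes are given as the deposited TPM, which also divides by transcript length. Across genes, log2 CPM of libraries correlated at 0.968 to 0.984 within groups and at 0.895 to 0.958 between groups. The values are from bulk RNA, in which fewer cells of a type and less RNA per cell cannot be told apart. The tables supplied pair no other ID with a symbol, so cell type markers, receptors and target genes of these factors were not analysed here, and the cell type on the label was not checked.

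By edgeR, the 4 members Fgf2, Fgf7, Lif and Vegfc were lower in spheroids than in 2D cells at 0 h, against 22.7% of all genes tested. For Fgf2, limma on log2(TPM + 1) did not make that call (-0.35, adjusted p = 0.38). The sequence around the start sites of these 4 is shown because of the edgeR calls. Each window is from RefSeq (GRCm38.p6) and runs 5′ to 3′ from 250 bases before to 50 bases after the annotated start. The counts were made on GRCm39, so these coordinates do not belong to the count table. The windows lie on the plus strand at chr3:37348403-37348702 (Fgf2), chr2:126034408-126034707 (Fgf7), chr11:4257318-4257617 (Lif) and chr8:54077282-54077581 (Vegfc). Capitals mark matches, on either strand, to any of 5 motifs searched. These were the AP-1 motif, spelled TGANTCA, the TEAD motif, spelled GGAATG, the HIF core, spelled ACGTG, the GC box, spelled GGGCGG, and the TATA box, spelled TATAAA.
Fgf2: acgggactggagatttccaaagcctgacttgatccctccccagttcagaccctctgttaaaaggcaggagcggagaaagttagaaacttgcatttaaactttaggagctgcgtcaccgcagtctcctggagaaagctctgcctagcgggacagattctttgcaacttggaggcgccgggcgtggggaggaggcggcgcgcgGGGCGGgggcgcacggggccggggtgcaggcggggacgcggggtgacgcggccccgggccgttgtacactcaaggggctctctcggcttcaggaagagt
Fgf7: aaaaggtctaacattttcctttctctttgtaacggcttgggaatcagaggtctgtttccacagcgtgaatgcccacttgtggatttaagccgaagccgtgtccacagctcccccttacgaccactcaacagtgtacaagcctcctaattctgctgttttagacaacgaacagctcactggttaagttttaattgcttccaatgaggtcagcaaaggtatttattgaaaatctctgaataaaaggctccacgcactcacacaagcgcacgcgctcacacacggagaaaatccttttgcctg
Lif: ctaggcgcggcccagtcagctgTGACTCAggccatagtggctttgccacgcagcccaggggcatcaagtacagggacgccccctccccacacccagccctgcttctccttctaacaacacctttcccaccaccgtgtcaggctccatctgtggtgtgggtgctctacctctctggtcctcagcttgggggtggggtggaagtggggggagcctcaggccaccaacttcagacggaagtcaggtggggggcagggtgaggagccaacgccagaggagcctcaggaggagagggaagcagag
Vegfc: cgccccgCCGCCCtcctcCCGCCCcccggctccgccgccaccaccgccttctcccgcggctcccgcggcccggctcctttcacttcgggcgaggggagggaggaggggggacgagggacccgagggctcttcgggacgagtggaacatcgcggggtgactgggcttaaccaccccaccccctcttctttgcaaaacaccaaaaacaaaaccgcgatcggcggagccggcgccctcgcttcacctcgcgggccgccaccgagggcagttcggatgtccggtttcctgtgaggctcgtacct
No motif was found in all 4 windows. Lif held 1 AP-1 match, from base -228 to base -222 relative to the start, and 7.81% of 32851 RefSeq windows of this length held at least 1. Fgf2 held 1 GC box and Vegfc held 2, against 35.7% of all windows with at least 1, and Fgf7 held a match to none of the 5 motifs. The TEAD motif was in 14.7%, the HIF core in 19.6% and the TATA box in 13.6% of all windows. No matches overlapped. Base composition differed too: G and C made up 62.7% of the Fgf2 window, 45.7% of Fgf7, 63.7% of Lif and 70.3% of Vegfc. RefSeq windows were matched for 5 of the 7 members; the fifth, Hgf, had 2 start sites, and neither window held a match. A match or its absence describes these letters only.

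The members spanned a wide range of expression. By TPM, Angptl4 in 24 h spheroids was the highest, at 291 ± 9.23 (SD, n = 3, as for all such values), above 95.6% of tested genes. Fgf7 was the highest member in the other 3 groups: 147 ± 23.8 TPM in 24 h attached cells, 55.4 ± 9.43 in 0 h spheroids and 123 ± 46.0 in 0 h attached cells. Angpt1 was the lowest in every group, at 0.763 ± 0.139 TPM in 24 h spheroids and 0.0900 ± 0.0265 TPM in 0 h attached cells, above 8.48% and 1.42% of tested genes. Group means lay between 14.7 and 27.9 TPM for Hgf, 12.5 and 25.2 TPM for Fgf2, 6.75 and 17.2 TPM for Vegfc, and 4.05 and 8.65 TPM for Lif, so the secreted set was led by an epithelial mitogen in 3 groups and by a lipase inhibitor in the fourth.

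Summed over the 7 members, the level was 418 ± 5.91 TPM in 24 h spheroids, 239 ± 34.4 in 24 h attached cells, 146 ± 9.88 in 0 h spheroids and 226 ± 50.4 in 0 h attached cells. Angptl4 made up 69.6% ± 3.03 of that sum in 24 h spheroids, against 14.0% ± 3.32 in 24 h attached cells. At 0 h its share was 22.1% ± 2.60 in 3D and 16.7% ± 3.92 in 2D. Fgf7 made up 17.6% ± 2.11 of the sum in 24 h spheroids and 61.2% ± 1.80 in 24 h attached cells. At 0 h the Fgf7 share was 37.8% ± 5.91 in 3D and 53.6% ± 8.15 in 2D, with 46.0% in 2D replicate 3. The high sum in spheroids at 24 h was thus mostly 1 gene, while the sum in 2D cells at 24 h was mostly Fgf7. These sums were not tested.

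**Figure D1:**
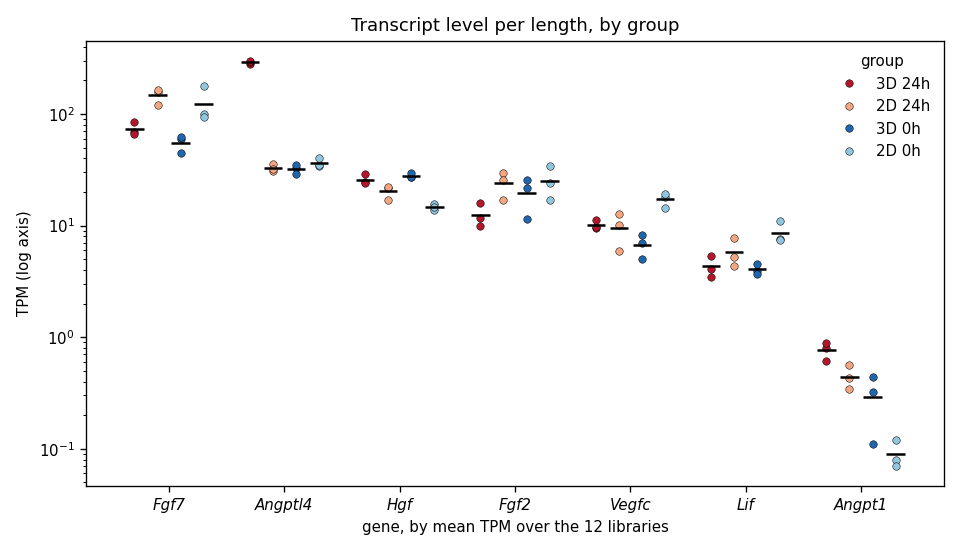
TPM (log axis) of each member in every library, with genes ordered by their mean over the 12 libraries. Points are libraries, coloured by group, and black lines are means of 3. Angptl4 in 24 h spheroids, at 291 TPM, stands clear of its other 3 groups, and Angpt1 is below 1 TPM in all libraries.

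At 24 h, Angptl4 was 9.10-fold higher in spheroids than in 2D cells, Hgf was modestly higher, and both fibroblast growth factors were lower by about a factor of 2. Of the 7 members, 2 were higher in 3D, against 19.6% of all genes tested, and 2 were lower, against 22.8% (edgeR quasi-likelihood test, adjusted p under 0.05). Lif, Angpt1 and Vegfc did not pass the test. The median log2 fold change of the 7 was 0.33, beside -0.00 for all genes. At 0 h the picture was different: Hgf was the 1 member higher in 3D, against 23.1% of genes, and Fgf2, Fgf7, Lif and Vegfc, 4 members, were lower, against 22.7%. The median of the 7 was -1.08, beside 0.02 for all genes. Over 24 h in spheroids, 1 member was higher, Angptl4, against 23.8% of genes, and 0 were lower, against 24.7%. At an unadjusted p under 0.05, edgeR also gave 0 lower members in spheroids, as did DESeq2 after adjustment. Over 24 h in 2D, Angpt1 was higher, 1 member against 17.4% of genes, and Lif, Vegfc and Angptl4 were lower, 3 members against 17.0%. Angpt1 had only 11 counts over the 3 libraries of 0 h attached cells, and 0 of them reached the filter level. It thus passed the filter through groups where it was higher, so its call is no separate support. For the change of the 3D against 2D ratio between the times, edgeR called 3 members higher at 24 h, Angptl4, Vegfc and Lif, against 18.7% of genes. It called 0 lower, against 20.5%, with 1, Hgf, at an unadjusted p under 0.05 and 0 by DESeq2. The median of the 7 was 0.20, beside -0.02 for all genes.

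With so few members, these shares are descriptions. The comparisons share libraries: those of 24 h spheroids enter both the comparison with 2D and the comparison with 0 h. Over all genes, the balance of calls moved with the scaling: lower calls were 53.8% of all calls at 24 h under TMM and 42.6% under library totals. At 0 h they were 49.6% under TMM, 39.3% under upper-quartile scaling, 40.8% under library totals and 38.0% on log2(TPM + 1). Over 24 h in 2D they were 49.5% under TMM and 30.3% on log2(TPM + 1). The median log2 fold change of all genes shifted with these, to at most 0.21 (24 h against 0 h in 2D, log2(TPM + 0.1)).

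**Figure D2:**
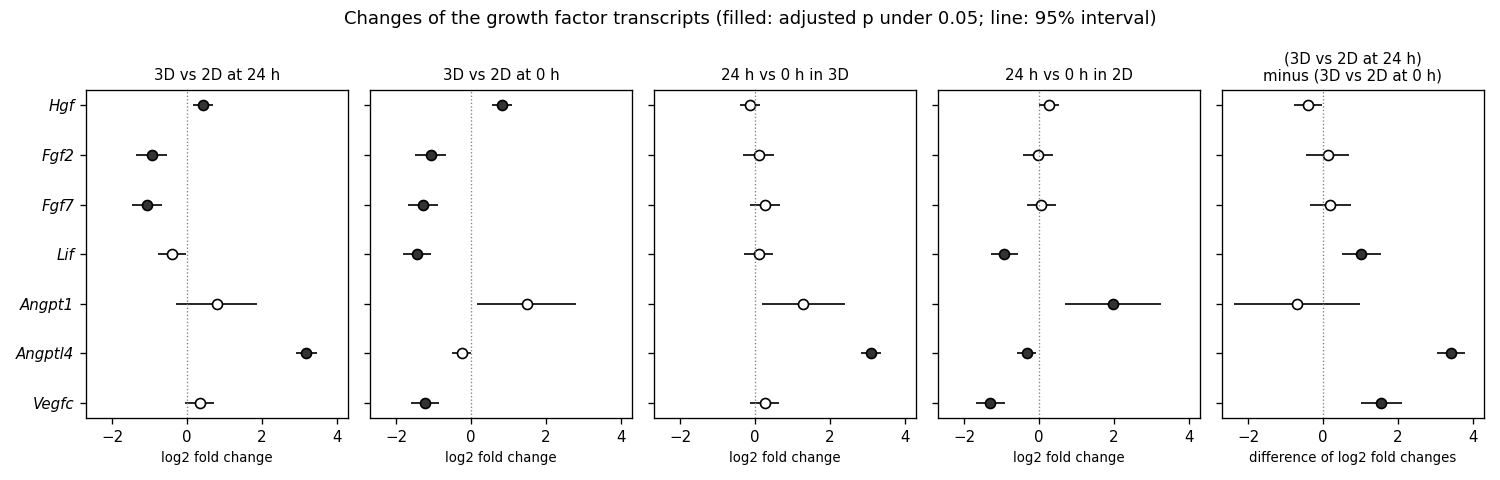
Log2 fold changes of the 7 genes in the 4 comparisons of groups, and in the last panel how far the culture effect at 24 h exceeded that at 0 h. Points are edgeR estimates with 95% intervals, filled where the adjusted p was under 0.05. Angptl4 stands at 3.19 and 3.10 in the comparisons that hold 24 h spheroids as the first group, and Fgf2, Fgf7, Lif and Vegfc lie below 0 for 0 h spheroids against 0 h attached cells.

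Angptl4, the lipase inhibitor, had 338, 388 and 387 CPM in the 3 spheroid libraries at 24 h, against 45.1, 38.8 and 38.4 CPM in 24 h attached cells. In spheroids at 0 h it had 43.8, 49.5 and 36.0 CPM, against 52.6, 48.0 and 53.1 CPM in 0 h attached cells. Every 24 h spheroid library was far above all 9 others, which lay close together. Relative to attached cells, the log2 fold change at 24 h was 3.19 ± 0.13 (SE; edgeR adjusted p = 4.3e-12), larger in size than that of 97.6% of genes tested. At 0 h it was -0.25 with a 95% interval of -0.51 to 0.01 (edgeR adjusted p = 0.11), which did not pass the test. Within spheroids, 24 h against 0 h gave 8.60-fold higher expression, with a 95% interval of 7.12 to 10.4 (edgeR adjusted p = 9.0e-12). The test of the change between the times gave a log2 difference of 3.43 ± 0.18 (SE; edgeR adjusted p = 2.5e-10).

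In 2D cells Angptl4 was lower at 24 h, with -0.33 ± 0.12 on the log2 scale (SE; edgeR adjusted p = 0.048). This small difference was called in only 6 of 21 alternatives, with adjusted p between 0.032 and 0.36. The call ended without any 1 of 2D 24 h replicates 2 and 3 and 2D 0 h replicates 1 and 3 (adjusted p = 0.16, 0.16, 0.11 and 0.14), and also without 3D 24 h replicate 2 or 3D 0 h replicates 1 or 2. The large difference in spheroids was called in all 21, at log2 fold changes of 3.12 to 3.31 against 24 h attached cells.

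Fgf7, the epithelial mitogen, had 85.4, 83.7 and 80.3 CPM in spheroids at 24 h, against 150, 189 and 186 CPM in 24 h attached cells. At 0 h it had 68.2, 55.9 and 83.0 CPM in 3D, against 144, 232 and 126 CPM in 2D. All 3D libraries were below all 2D libraries at either time. The gene was 2.10-fold lower in 24 h spheroids (edgeR adjusted p = 0.00018) and 2.42-fold lower at 0 h (edgeR adjusted p = 3.4e-05). The log2 difference between the times was 0.20, with a 95% interval of -0.35 to 0.76. Neither culture showed a change over 24 h that passed the test: the log2 fold change was 0.27 in 3D, with an interval of -0.13 to 0.67, and 0.07 in 2D, with an interval of -0.32 to 0.46. The order of the groups was therefore by culture, with the times of a culture not distinguishable by their spread.

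Fgf2, the broad-acting fibroblast growth factor, had 46.4, 29.2 and 33.8 CPM in spheroids at 24 h, against 58.8, 78.2 and 75.1 CPM in 24 h attached cells. At 0 h it had 39.1, 28.7 and 34.9 CPM in 3D, against 59.4, 94.2 and 63.0 CPM in 2D. The groups did not overlap between cultures at either time. It was 1.93-fold lower in 24 h spheroids (edgeR adjusted p = 0.00077) and 2.11-fold lower at 0 h (edgeR adjusted p = 0.00025). Between the times, the log2 fold change was 0.10 in 3D (interval -0.32 to 0.51) and -0.03 in 2D (interval -0.43 to 0.37). In CPM the profile of Fgf2 thus resembled that of Fgf7, and 2D 0 h replicate 2 was the highest library for both. The SD of that group was 26.5% of the mean for Fgf2 and 33.8% for Fgf7, where the median over all tested genes was 17.4%.

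The Fgf2 result at 0 h depended on the measure. The deposited TPM was 25.7, 21.8 and 11.6 in 0 h spheroids, against 16.8, 34.5 and 24.2 in 0 h attached cells, and these libraries overlapped. On log2(TPM + 1), limma gave a log2 fold change of -0.35 (adjusted p = 0.38). At 24 h the same limma fit on TPM still called Fgf2 lower in 3D, at -0.88 (adjusted p = 0.034), with 15.9, 11.7 and 9.91 TPM in spheroids and 16.8, 29.5 and 25.6 TPM in attached cells, but not without the filter on low values (adjusted p = 0.10). Count divided by TPM gives the effective length that the authors' quantification used, here expressed relative to the median gene of the library. For Fgf2 this length was 1.08, 0.931 and 2.19 in the 3 spheroid libraries at 0 h. In the 9 other libraries it lay between 1.76 and 2.52. Spheroid replicates 1 and 2 at 0 h were therefore credited with a much shorter transcript than all other libraries, which raises TPM for a given count. The highest of the 12 lengths was 2.71 times the lowest, a wider range than in 99.2% of 7934 well-counted genes, whose median was 1.20. Fgf2 counts were also not whole in any of the libraries, so some of its reads were shared by estimate beyond the gene. Sharing among transcripts of 1 gene leaves its count whole, so this is separate from the change in length. In the RefSeq gene table Nudt6 and Fgf2os overlap Fgf2, and Nudt6 is known to run antisense to it. The protocols name a stranded library kit, used after SMART-seq v4 handling. Whether strand was kept through both steps, or used in counting, is not given in the sources used here. It is therefore not known whether reads of the overlapping genes were kept apart from those of Fgf2.

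**Figure D3:**
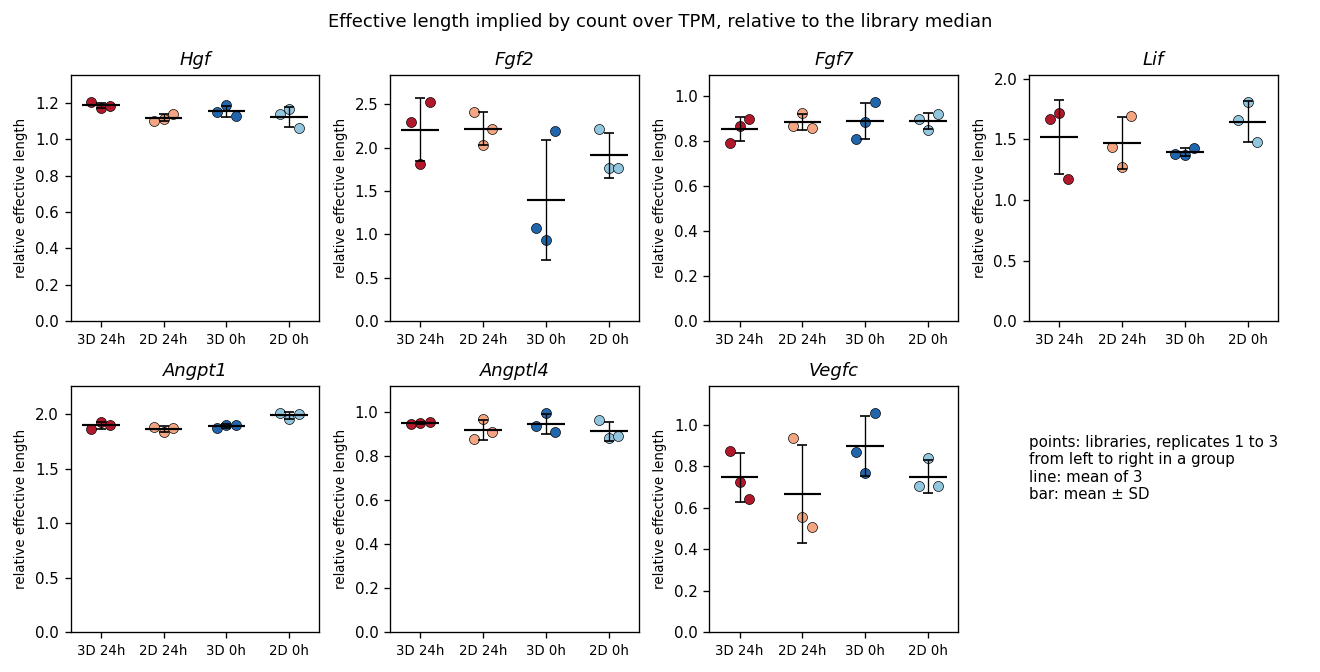
Effective length implied by count over TPM, relative to the library median (no unit), for each gene in every library, with the mean ± SD of 3. For Fgf2, 3D 0 h replicates 1 and 2 sit near 1 while the 10 other libraries lie between 1.76 and 2.52, and Vegfc ranges from 0.507 to 1.06.

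Lif, the interleukin-6 family cytokine, had 7.69, 7.21 and 8.89 CPM in spheroids at 0 h, against 20.0, 20.8 and 23.8 CPM in 0 h attached cells. At 24 h it had 8.65, 8.31 and 8.51 CPM in 3D, against 9.15, 12.9 and 11.8 CPM in 2D. In CPM the 2D cells at 0 h stood apart, above all 9 other libraries. In TPM they did not: 2D 24 h replicate 2 had 7.76 TPM, against 7.55, 7.42 and 10.97 TPM in 0 h attached cells. At 0 h Lif was 2.72-fold lower in 3D (edgeR adjusted p = 4.3e-06). At 24 h the log2 fold change was -0.41 with an interval of -0.79 to -0.04, which did not pass the test (edgeR adjusted p = 0.071). The libraries at 24 h did not overlap in CPM. In TPM they did, with 4.07, 3.48 and 5.38 in 3D against 4.38, 7.76 and 5.26 in 2D. Without 2D 24 h replicate 1 the 24 h comparison did pass (log2 fold change -0.49, edgeR adjusted p = 0.045). In 2D cells Lif was 1.90-fold lower at 24 h than at 0 h (edgeR adjusted p = 0.00068). In 3D the change over the same time was 0.10, with an interval of -0.28 to 0.48. The 3D against 2D change differed between the times by 1.03 ± 0.25 on the log2 scale (SE; edgeR adjusted p = 0.0034). That difference was not called by limma on log2(TPM + 1), at 0.58 (adjusted p = 0.21), nor was the change over 24 h in 2D, at -0.52 (adjusted p = 0.12).

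Vegfc, the ligand for lymphatic endothelium, had a similar profile. It had 10.1, 7.65 and 7.38 CPM in spheroids at 0 h, against 20.2, 18.8 and 20.0 CPM in 0 h attached cells. At 24 h it had 10.6, 9.69 and 9.78 CPM in 3D, against 8.07, 9.17 and 6.75 CPM in 2D. The 3 libraries of 0 h attached cells were again above the 9 others, and at 24 h the 3D libraries were all slightly above the 2D ones in CPM, though not in TPM. Vegfc was 2.35-fold lower in 0 h spheroids (edgeR adjusted p = 3.0e-05). At 24 h the log2 fold change was 0.33 with an interval of -0.05 to 0.72, which did not pass the test (edgeR adjusted p = 0.16). In 2D it was 2.46-fold lower at 24 h than at 0 h (edgeR adjusted p = 5.4e-05), a call that was lost in limma on unfiltered log2(TPM + 1), at -0.83 (adjusted p = 0.052). In 3D the change was 0.26, with an interval of -0.12 to 0.65. The difference between the times was 1.57 ± 0.26 (log2, SE; edgeR adjusted p = 0.00012). The effective length credited to Vegfc varied more among libraries than that of 96.9% of well-counted genes, with the highest 2.09 times the lowest.

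Angpt1, the TIE2 ligand, was near the limit of detection. It had 35, 29 and 21 counts in the spheroid libraries at 24 h, against 13, 15 and 12 in 24 h attached cells. At 0 h it had 3, 16 and 10 counts in 3D, against 3, 5 and 3 in 2D. In CPM, the means were 1.94 ± 0.399 in 24 h spheroids, 1.12 ± 0.256 in 24 h attached cells, 0.773 ± 0.452 in 0 h spheroids and 0.276 ± 0.0805 in 0 h attached cells. The groups at 24 h and at 0 h did not overlap in 2D, and in 3D the highest library at 0 h was below the lowest at 24 h. The level that the filter asked for, 0.795 CPM in unscaled counts, was reached by 0 of 3 libraries of 0 h attached cells, 2 of 0 h spheroids and all 6 at 24 h, so Angpt1 entered the test mainly through its 24 h libraries. In 2D it was 3.94-fold higher at 24 h (95% interval 1.61 to 9.66, edgeR adjusted p = 0.020), and that call ended without 2D 24 h replicate 2 or 2D 0 h replicates 1 or 3 (adjusted p = 0.069, 0.059 and 0.062). It also ended with only the groups compared (adjusted p = 0.056) and with limma on log2(TPM + 1), at 0.40 (adjusted p = 0.069). The other comparisons missed the threshold with wide intervals. In 3D, 24 h against 0 h was 2.44-fold (interval 1.13 to 5.29, edgeR adjusted p = 0.053), and it was called without 3D 0 h replicate 2 (adjusted p = 0.039). The 3D against 2D ratio was 2.79 at 0 h (log2 interval 0.16 to 2.81, edgeR adjusted p = 0.063) and 1.73 at 24 h (interval 0.818 to 3.67, edgeR adjusted p = 0.23). The first of these was called without 3D 0 h replicate 1, the library with 3 counts (adjusted p = 0.028), and with upper-quartile scaling or library totals (adjusted p = 0.046 and 0.047).

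Hgf, the MET ligand, was called higher in spheroids by edgeR at 0 h, as were 23.1% of genes tested, and at 24 h, as were 19.6%. The share of genes called higher at both times was not computed. It had 44.1, 45.5 and 45.7 CPM in 0 h spheroids, against 25.1, 28.5 and 22.9 CPM in 0 h attached cells. At 24 h it had 44.0, 40.2 and 38.7 CPM in 3D, against 27.3, 31.4 and 33.4 CPM in 2D. All 6 spheroid libraries were above all 6 libraries of 2D cells. The gene was 1.77-fold higher in 0 h spheroids (interval 1.47 to 2.13, edgeR adjusted p = 4.7e-05) and 1.33-fold higher at 24 h (interval 1.11 to 1.60, edgeR adjusted p = 0.013). The log2 difference between the times, -0.41 with an interval of -0.78 to -0.03, did not pass the test (edgeR adjusted p = 0.080), but it did in 4 alternatives. These were the fit without 2D 0 h replicate 2 (-0.49, adjusted p = 0.034), upper-quartile scaling (-0.46, adjusted p = 0.048), and limma on log2(TPM + 0.1) (-0.56, adjusted p = 0.048) and on unfiltered log2(TPM + 1) (-0.53, adjusted p = 0.047). The call at 24 h was lost in every limma fit on TPM. On log2(TPM + 1) the log2 fold change was 0.34 (adjusted p = 0.067, and 0.060 without the filter). On log2(TPM + 0.1) it was 0.36 (adjusted p = 0.066). Over 24 h the log2 fold change was -0.14 in 3D (interval -0.40 to 0.12) and 0.27 in 2D (interval 0.00 to 0.54, edgeR adjusted p = 0.11), and the change in 2D was called without 2D 0 h replicate 2, at 0.36 (adjusted p = 0.046), and by limma on log2(TPM + 1), at 0.43 (adjusted p = 0.035). Hgf counts were not whole in any library, which shows that some reads were shared out by estimate, and the RefSeq table places Gm31113 over it. In the same table Fam227b overlaps Fgf7, Gm41313 overlaps Angpt1 and Gm33153 overlaps Vegfc, while no gene overlaps Lif or Angptl4.

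**Figure D4:**
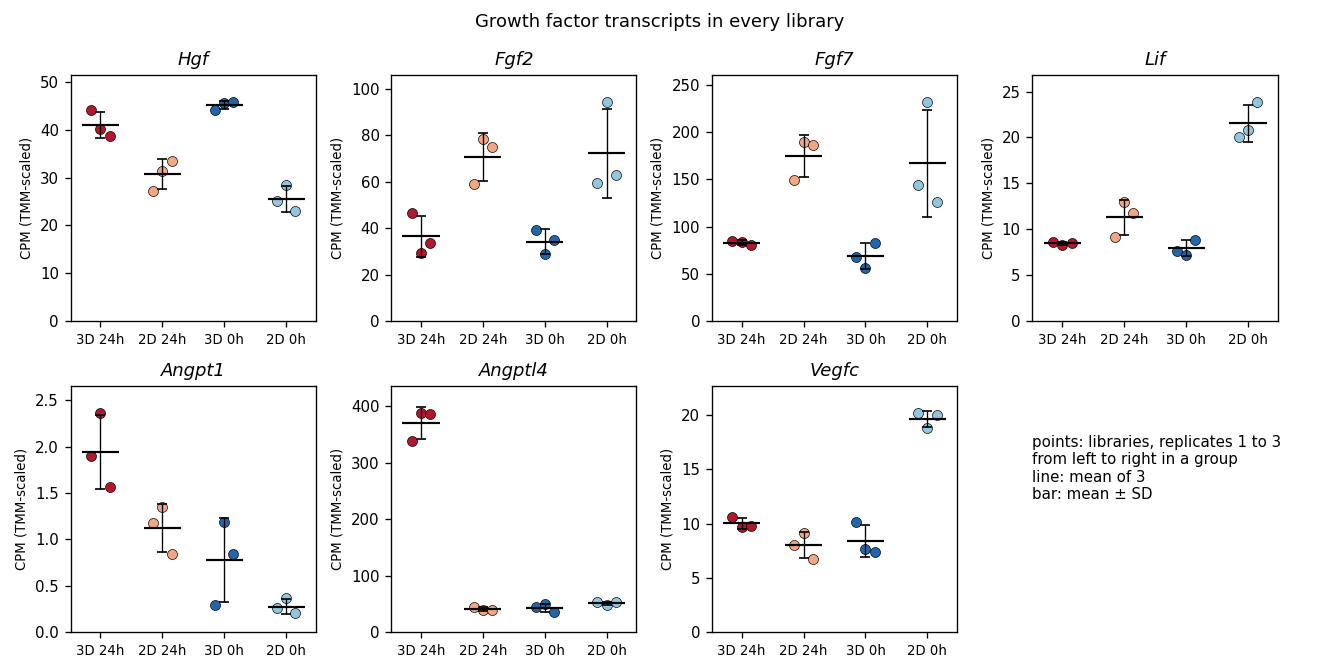
TMM-scaled CPM of each member in the 12 libraries, by group, on axes that start at 0. Points are libraries, lines are means of 3 and bars are ± SD. Angptl4 is near 371 CPM in 24 h spheroids and between 40.8 and 51.2 CPM in the other groups, Lif and Vegfc are high in 0 h attached cells only, and Fgf2 and Fgf7 divide by culture.

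Across the 12 libraries, the members' profiles fell into a few shapes, given here as descriptions over libraries that share 4 groups. In log2 CPM, Fgf2 and Fgf7 had the closest profiles by both coefficients (Pearson r = 0.95, Spearman's rho = 0.91). Correlations of TPM, in which Fgf2 overlapped between the cultures at 0 h, were not computed. The next pair in log2 CPM depended on the coefficient: Lif and Vegfc had r = 0.83 but rho = 0.41. Lif had r = 0.75 and rho = 0.87 with Fgf2, and r = 0.72 and rho = 0.82 with Fgf7. Hgf ran opposite to Lif (r = -0.86, rho = -0.82). Among 10595 other genes averaging 5 CPM or more, 196 had a profile with r over 0.9 to Angptl4, 130 to Fgf7, 120 to Lif, 100 to Hgf, 79 to Fgf2 and 43 to Vegfc. Angpt1 had 17 of 10596. These genes carry no names in the files. The closest to Angptl4 was ENSMUSG00000012609 (r = 0.99), with a mean of 38.5 CPM in 24 h spheroids against 14.9 CPM in 24 h attached cells, and 15.2 CPM in 0 h spheroids against 15.6 CPM in 0 h attached cells. The closest to Fgf2 was ENSMUSG00000029840 (r = 0.98), with 317 CPM in 24 h spheroids against 451 CPM in 24 h attached cells. At 0 h it had 319 CPM in 3D against 462 CPM in 2D. The closest to Fgf7 was ENSMUSG00000026305 (r = 0.98). It had 95.1 CPM in 3D against 189 CPM in 2D at 24 h, and 77.0 CPM against 174 CPM at 0 h. ENSMUSG00000043336 ranked 3 for both Fgf2 (r = 0.96) and Fgf7 (r = 0.97), with a wider gap between cultures. It had 21.2 CPM in 24 h spheroids against 92.5 CPM in 24 h attached cells, and 19.5 CPM in 0 h spheroids against 65.8 CPM in 0 h attached cells. The closest to Vegfc was ENSMUSG00000032020 (r = 0.97), with 14.3 CPM in 24 h spheroids against 9.20 CPM in 24 h attached cells, and 11.3 CPM in 0 h spheroids against 38.8 CPM in 0 h attached cells.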

How the data were processed

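RNA from 12 samples of mouse adipose-derived stem cells was sequenced after SMART-seq v4 low-input handling and stranded TruSeq mRNA library preparation, per the labels' protocols. FastQC 0.11.9, STAR, RSEM and the GRCm39 build were used, per the submitters' processing notes; the sources used here give no further versions, annotation or settings. Deposited by the authors were expected counts of each gene, which can be fractional where reads are shared between genes. Also deposited were log2(TPM + 1) values (length-scaled abundance, pseudocount 1). Columns named for day 0 and day 1 were read as 0 h and 24 h.

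Expected counts were rounded and fitted in edgeR 4.0.16 (R 4.3.3) over all 12 libraries with 1 term per group (8 residual degrees of freedom), after the expression filter (minimum count 10) and TMM scaling. Quasi-likelihood tests were adjusted by Benjamini-Hochberg over all 14338 genes, with calls at an adjusted p under 0.05. SEs were taken from the F statistic, and 95% intervals from the moderated degrees of freedom. Relative effective length was count over TPM, divided by the library's median over 7934 genes with at least 100 counts in all libraries. Alternatives used DESeq2 1.42.0 and limma 3.58.1 (trended, on log2(TPM + 1) or log2(TPM + 0.1)), other scalings and filters, a replicate block and the omission of each library. The steps were tested on simulated data.

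The members and lists were chosen with earlier results of these data known. The rule for named genes took all 7 members, up to 4 called genes of each list per comparison, and the 3 genes closest to each member by Pearson correlation. The lists (other ligands, receptors, processing, ERK, STAT3 and PPAR targets, cell type markers) were fixed by symbol and could not be applied, since 0 of 56748 IDs matched the RefSeq gene table (GRCm38.p6). Of the closest genes, some are given by ID. Same-numbered libraries did not deviate together, so numbers were not taken as pairs.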

Additional observations from a re-analysis of the deposited data

Results flagged for a closer look

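For 3 of the 7 members, the difference between spheroids and 2D cells was not the same at 24 h and at 0 h by edgeR's test of the difference. In all 3 the ratio of spheroids to 2D cells was called higher at 24 h, against 18.7% of genes tested. In 0 members it was called lower, against 20.5%. For Angptl4, log2 of spheroids over attached cells was 3.19 at 24 h but -0.25 at 0 h, a difference of 3.43 ± 0.18 (SE; edgeR adjusted p = 2.5e-10). For Vegfc it was 0.33 at 24 h but -1.23 at 0 h, a difference of 1.57 ± 0.26 (SE; edgeR adjusted p = 0.00012). For Lif it was -0.41 at 24 h but -1.44 at 0 h, a difference of 1.03 ± 0.25 (SE; edgeR adjusted p = 0.0034), which limma on log2(TPM + 1) did not call (0.58, adjusted p = 0.21). All 3 spheroid libraries at 24 h stood apart for Angptl4, while the 2D libraries at 0 h stood apart for Vegfc, and for Lif in CPM but not in TPM. Groups of 3 libraries were too small to look for single outlying libraries.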

How the results depend on the processing

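Of 728 values of single genes under other settings, 657 kept their direction and side of the threshold, 34 lost the call, 19 gained it and 18 changed sign. All sign changes were of values that had not passed the test. For Fgf2, 24 h against 0 h in 3D was 0.10 and became -0.57 on log2(TPM + 1), with or without the filter, and -0.60 on log2(TPM + 0.1). Its range with 1 library left out was -0.092 to 0.24. In 2D, Fgf2 was -0.03 and became 0.017 with upper-quartile scaling and 0.023 with library totals (-0.16 to 0.21 with 1 library left out). Its difference between the times was 0.13 and became -0.52, -0.55 and -0.52 in the limma fits (-0.11 to 0.29 with 1 left out). Angpt1's difference between the times was -0.69 and became 0.054 on log2(TPM + 1), with or without the filter. With 1 library left out, Fgf7 ranged from -0.085 to 0.37 over 24 h in 2D and from -0.105 to 0.38 for the difference between the times.

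The number of members called for 3D against 2D at 24 h was 4, and 2 in limma on unfiltered log2(TPM + 1). Of all genes, 2815 were called higher and 3276 lower of 14338, and 2660 and 2390 of 25798 in that limma fit. Over 24 h in 3D the number of members was 1. It was 2 with DESeq2, library totals, only the groups compared and all limma fits (1 to 2 with 1 library left out). The added member was Angpt1. Of all genes, 3413 were called higher and 3541 lower. DESeq2 called 3578 and 3590, library totals 3924 and 3119, and only the groups compared 3840 and 3714. The limma fits called 3498 and 2865 on log2(TPM + 1), 3386 and 2771 on log2(TPM + 0.1), and 3250 and 2644 of 25798 on unfiltered log2(TPM + 1). Over 24 h in 2D the number of members was 4. It was 2 with only the groups compared and with limma on log2(TPM + 1), filtered or not (2 to 5 with 1 library left out). Of all genes, 2489 were called higher and 2439 lower, and 2028 and 2054 with only the groups compared. Limma on log2(TPM + 1) called 2891 and 1257, and 2131 and 980 of 25798 without the filter. For 3D against 2D at 0 h the number of members was 5, with 4 to 6 under the alternatives. For the difference between the times it was 3, with 2 to 4. Of all genes, the main fit called 3309 higher and 3255 lower at 0 h, and 2675 and 2934 for the difference between the times. The cause of these differences between settings was not tested. Over all genes, lower calls for 24 h against 0 h in 2D numbered 2439, and 1257, 1228 and 980 in the limma fits on log2(TPM + 1), log2(TPM + 0.1) and unfiltered log2(TPM + 1). For 3D against 2D at 0 h they numbered 3255, and 1980 in the unfiltered limma fit.

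With the replicate number as a block (replicate block), 4 and 5 members were called for 3D against 2D at 24 h and 0 h. Over 24 h, 1 member was called in 3D and 3 in 2D, and 3 were called for the difference. Of 14338 genes, that fit called 2599 higher and 3082 lower at 24 h, and 3105 and 3023 at 0 h. Over 24 h it called 3206 and 3317 in 3D and 2210 and 2122 in 2D. For the difference it called 2402 and 2731. Among the members, only Angptl4 over 24 h in 2D lost its call (-0.33, edgeR adjusted p = 0.075). Deviations from the group means of same-numbered libraries correlated at -0.23 to 0.05, with 0 of 18 pairs over 0.1, and 0 of 12 libraries correlated best with their own number. Depth limits Angpt1, with 11 counts over the 3 libraries of 2D at 0 h. The difference between the times has no fit to only the groups compared, since it uses all 4.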
